A study of Arabidopsis thaliana with 6 samples.

Results

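The 43 genes described here encode the light-harvesting antenna proteins and the nuclear-encoded subunits of both photosystems of Arabidopsis thaliana. They were taken from a fixed list of loci and fall into 20 antenna genes (14 LHCB and 6 LHCA), 12 photosystem I (PSI) genes named PSA and 11 photosystem II (PSII) genes named PSB. All 43 had a row among the 27826 of the deposited table, whose row names are locus identifiers with the suffix _at, and all 43 were named by the RefSeq gene table, which places them on the 5 nuclear chromosomes. RNA was profiled on 6 microarrays of embryos at the 16-cell stage, 72 h after hand pollination, from plants grown on soil in long days. On 3 arrays, called nuclear, the RNA came from embryo nuclei captured with INTACT, a labelling system with a pair of transgenes that puts biotin on the nuclear envelope and so allows nuclei to be drawn out on beads, used here with a marker of the whole embryo. On the other 3 arrays, called cellular, the RNA came from whole embryos that were dissected by hand with a micromanipulator. Each group has 3 biological replicates by its labels. The sources used here do not name the promoter behind that marker, the ecotype or the number of embryos in a sample. Isolation method and RNA compartment change together between the groups and cannot be told apart.

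Chlorophyll a/b-binding antenna proteins collect light and pass its energy to the reaction centres of PSII and PSI, where it drives electron transport from water to ferredoxin. The chlorophyll-carrying core proteins of the reaction centres are encoded in the chloroplast genome, while the antenna and many smaller subunits are encoded in the nucleus, made in the cytosol and imported. These nuclear genes are known for strong and coordinated expression in green, light-grown tissue. The Arabidopsis embryo greens later in its development.

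Markers were checked first, because they bear on what each sample held. Of 20 embryo marker genes, 8 were lower in nuclear RNA and 0 higher, against 4.71% and 1.15% of all genes. The test here and throughout is limma's, two-sided, and a gene passed at a Benjamini-Hochberg adjusted p under 0.05 over 27241 genes. The list's median was 2.55, 2.83 and 2.25 on nuclear replicates 1 to 3, against 5.94, 5.56 and 4.31 on cellular replicates 1 to 3, on the log2 intensity scale. LEC1, a regulator of embryo identity, had 2.26, 2.20 and 2.26 on the nuclear arrays, against 6.60, 5.99 and 6.24 on the cellular arrays. WOX2, a homeobox gene of the early apical lineage, had 3.11, 2.84 and 2.24 on the nuclear arrays, against 8.71, 8.10 and 6.10 on the cellular arrays (log2 change -4.91, adjusted p = 0.0150). DRN, an AP2-type factor of early embryo patterning, had 2.37, 2.91 and 2.16 on the nuclear arrays, against 7.58, 7.33 and 5.50 on the cellular arrays (log2 change -4.32, adjusted p = 0.0138). WOX2 and DRN had the largest falls of the list. Of the 20 genes, 5 had a higher nuclear than cellular mean, STM among them (log2 change 0.72, adjusted p = 0.134). Every nuclear array was below every cellular array for 13 of the 20 and above for 2. Over all genes these shares were 14.4% and 18.6%. The medians of whole arrays lay between 2.47 and 2.68, so LEC1 was below the middle of all genes on every nuclear array. MP, an auxin response factor of embryo patterning, was above it on the nuclear arrays, at 5.76, 5.99 and 5.23, against 7.94, 8.06 and 7.22 on the cellular arrays. The intensities of the 20 embryo markers summed to between 253 and 317 on the nuclear arrays and between 794 and 2003 on the cellular arrays, on the linear scale.

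Markers of the seed coat, a maternal tissue around the embryo, had medians of 6.89, 5.66 and 5.88 on the nuclear arrays, against 3.12, 4.84 and 5.87 on cellular replicates 1 to 3. Of 21 such genes, 20 had a higher nuclear than cellular mean and 0 passed the threshold in either direction (4 were higher at an unadjusted p under 0.05). The lowest p among them were those of MYB5, a seed coat transcription factor (log2 change 3.69, adjusted p = 0.0945), and AHA10, a proton pump of tannin accumulation (log2 change 1.85, adjusted p = 0.107). Their linear intensities summed to between 3211 and 7246 on the nuclear arrays and between 547 and 4053 on the cellular arrays, so the groups overlap. No more than 2 of the 21 were at or below the array median on any nuclear array. On 5 of the 21 (23.8%) every nuclear array was above every cellular array, against 18.6% of all genes. Endosperm markers were mostly dim, with medians of 1.90 to 2.41 on nuclear and 1.74 to 1.95 on cellular arrays, linear sums of 47.4 to 88.7 on nuclear and 43.2 to 60.2 on cellular arrays, and 0 of 12 past the threshold (0 at an unadjusted p under 0.05 in either direction). From 8 to 12 of the 12 were at or below the array median, depending on the array. PHE1 reached 4.95 on nuclear replicate 2 and 3.28 on cellular replicate 3. FIS2 and AGL62, regulators of endosperm development, were below the array median on all 6 arrays. Within that list YUC10, an auxin synthesis enzyme, had the lowest p (log2 change 0.54, adjusted p = 0.279), followed by FIS2 (log2 change 0.29, adjusted p = 0.410). Guard cell and leaf markers had medians of 2.06 to 2.56 on nuclear and 1.79 to 2.17 on cellular arrays. Their linear sums were 97.3 to 295 on nuclear and 45.1 to 66.8 on cellular arrays. Of these 11 genes 1 passed the threshold, namely CA1, a chloroplast carbonic anhydrase of leaf tissue, with 6.88, 7.86 and 4.79 on the nuclear arrays against 2.38, 2.37 and 2.99 on the cellular arrays (log2 change 3.93, adjusted p = 0.0369). Of the 11, 10 had a higher nuclear than cellular mean, and 4 were higher and 0 lower at an unadjusted p under 0.05. On 6 of the 11 (54.5%) every nuclear array was above every cellular array, against 18.6% of all genes. Most of this list was dim too, with 6 to 10 of the 11 at or below the array median, depending on the array. For 6 of the 11 both group means were below the median of all values. The part of other cell types in the changes below was not tested. In such bulk samples more cells of a type and more RNA per cell cannot be told apart.

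Of the 43 antenna and photosystem genes, 17 were higher in nuclear than in cellular RNA, 0 were lower and 26 did not pass. Over all 27241 genes tested, 1.15% rose and 4.71% fell. Falls made up 80.4% of those calls, 63.4% after cyclic loess and 68.5% after quantile normalization, while 17 and 18 of the 43 genes rose under these scalings and 0 fell. The 17 were 4 of 20 antenna genes, 6 of 12 PSI genes and 7 of 11 PSII genes, and 42 of the 43 changes lay above 0. On 32 of 43 genes every nuclear array was above every cellular array, and on 0 every nuclear array was below, against 18.6% and 14.4% of all genes. The median log2 change of the 43 was 1.42, with a middle range from 0.69 to 2.28, against a median of 0.13 over all genes. At least a 2-fold higher nuclear mean was found for 27 of the 43. The count of 17 changed when a single array was left out, which also leaves fewer samples to test. It was 7 without nuclear replicate 1, 7 without nuclear replicate 2, 8 without nuclear replicate 3, 5 without cellular replicate 1 and 1 with cellular replicate 2 left out, while it was 19 when cellular replicate 3 was omitted. Rises over all genes changed too, from 313 to 225, 188 and 272 without nuclear replicates 1 to 3 in turn. Without cellular replicates 1 to 3 in turn they were 54, 28 and 419. With single arrays left out, the median log2 change of the 43 stayed between 1.20 and 1.59.

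**Figure D1:**
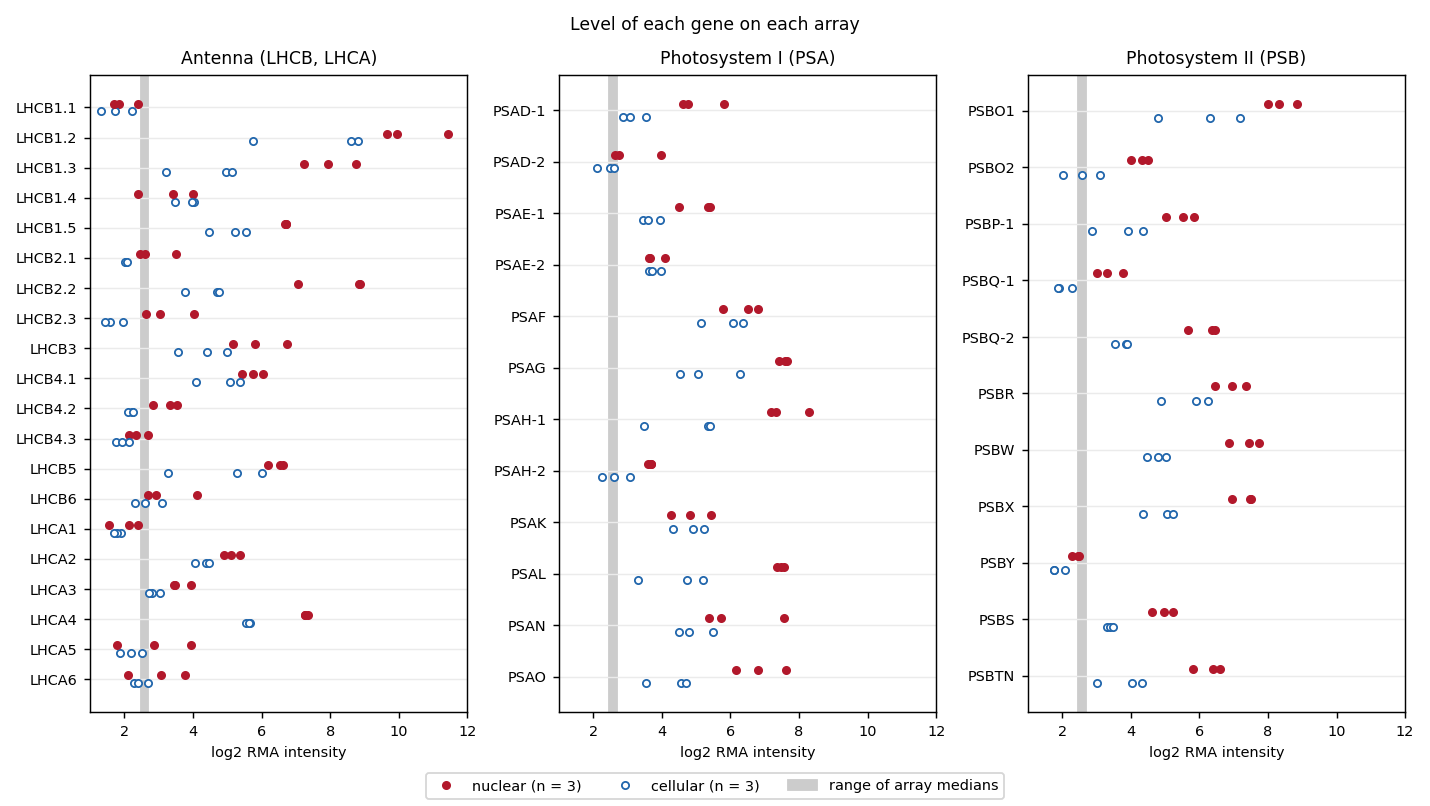
Level of each of the 43 genes on each array, as log2 RMA intensity, with nuclear arrays as filled red points and cellular arrays as open blue points just below them (3 each), in 3 panels for antenna, PSI and PSII genes. The grey band is the range of the array medians, 2.47 to 2.68; all 11 PSII genes have their 3 nuclear points right of their 3 cellular points, and 13 of 20 antenna genes and 8 of 12 PSI genes do.

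Class medians are given as a description, with no test between classes. The median log2 change was 0.86 for antenna genes, 1.35 for PSI genes and 1.75 for PSII genes, or 0.73, 1.22 and 1.61 once the median of all genes is subtracted. Among brighter genes alone, those whose mean over all 6 arrays was above the median of all values, the antenna median was 1.31 (14 genes). For PSI it was 1.35 (12 genes) and for PSII 2.02 (10 genes). A member could enter through its nuclear values alone, as LHCB4.2 did (mean 3.23 nuclear, 2.20 cellular). These medians are therefore no check on the gap between classes. The PSII class had a median level of 5.84, 6.36 and 5.80 on the nuclear arrays, against 3.30, 3.92 and 4.32 on the cellular arrays. The PSI class had 5.80, 5.40 and 5.53 on the nuclear arrays, against 3.51, 4.65 and 4.81 on the cellular arrays. The antenna class had 3.85, 3.98 and 4.05 on the nuclear arrays, against 3.00, 3.38 and 3.54 on the cellular arrays. In none of the 3 classes did the nuclear and cellular medians overlap. Cellular replicate 1 gave the lowest cellular value for 34 of the 43 genes, 12 of 12 PSI genes among them, and it was also the array with the lowest seed coat median and the highest embryo median. Its median over all genes, 2.47, was the lowest of the 6 arrays. How many of all genes were lowest on it was not counted. On cellular replicate 3 the seed coat median, 5.87, lay within the nuclear range of 5.66 to 6.89. The antenna, PSI and PSII medians on that array were 3.54, 4.81 and 4.32. Any link between the seed coat medians and the class medians was not tested. Dim members were unevenly spread: the cellular mean was below the median of all values, 2.57, for 8 antenna, 1 PSI and 2 PSII genes.

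**Figure D2:**
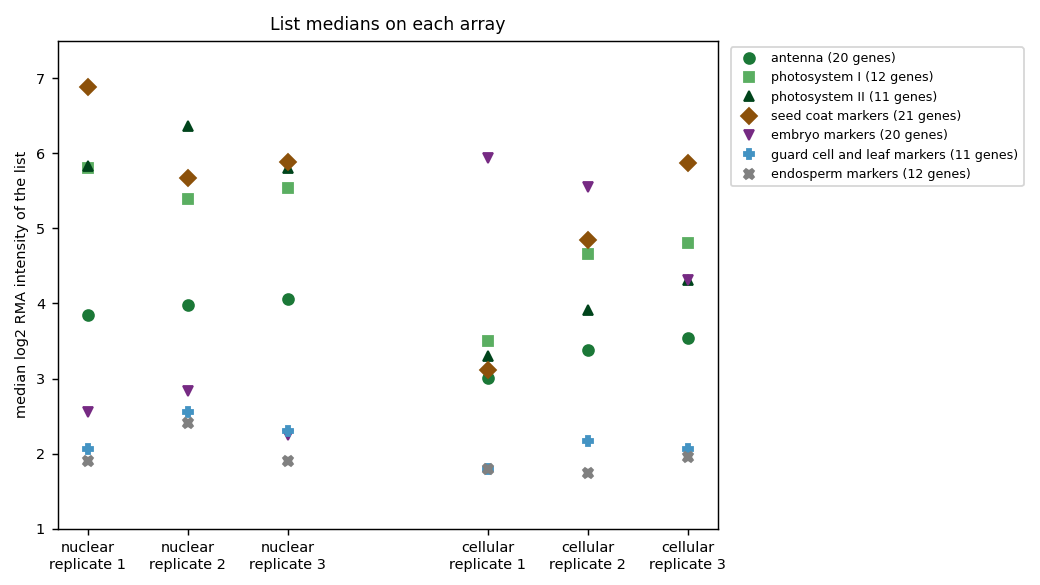
Median log2 RMA intensity of each gene list on each of the 6 arrays, nuclear replicates on the left and cellular replicates on the right, with 1 symbol per list. Embryo markers sit at 2.25 to 2.83 on nuclear arrays and 4.31 to 5.94 on cellular arrays, and seed coat markers reach 5.87 on cellular replicate 3, inside their nuclear range.

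The major antenna of PSII is a trimer of LHCB1, LHCB2 and LHCB3 proteins, and these genes held both the largest antenna rise and the 1 change below 0. LHCB2.2 (AT2G05070_at) had 8.84, 8.86 and 7.07 on the nuclear arrays, against 3.77, 4.68 and 4.77 on the cellular arrays. The nuclear values were all more than 2 log2 units above the cellular ones, and the difference of means was 3.85 (SE 0.56, 14.4-fold, 95% confidence interval 5.63 to 36.9, adjusted p = 0.0172). LHCB1.3 (AT1G29930_at) had 7.24, 8.75 and 7.93 on the nuclear arrays, against 3.21, 4.95 and 5.12 on the cellular arrays, again with no overlap. It rose 11.7-fold (log2 change 3.55, SE 0.62, adjusted p = 0.0283). LHCB1.5 (AT2G34420_at) was nearly constant over the nuclear arrays, at 6.69, 6.72 and 6.70, and had 4.46, 5.22 and 5.54 on the cellular arrays. Its rise was 3.10-fold (log2 change 1.63, SE 0.30, adjusted p = 0.0328).

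The remaining trimer genes did not pass the threshold. LHCB1.2 (AT1G29910_at) had 9.96, 9.67 and 11.45 on the nuclear arrays, against 5.75, 8.81 and 8.59 on the cellular arrays. Its groups did not overlap, but cellular replicate 1 was far below the other two, and the log2 change of 2.64 had an SE of 0.91 (adjusted p = 0.155). LHCB3 (AT5G54270_at) had 6.74, 5.80 and 5.16 on the nuclear arrays, against 3.57, 4.99 and 4.40 on the cellular arrays, without overlap (log2 change 1.58, adjusted p = 0.139). LHCB2.1 (AT2G05100_at) had 2.44, 3.51 and 2.61 on the nuclear arrays against 2.04, 2.01 and 2.06 on the cellular arrays (log2 change 0.82, adjusted p = 0.184). LHCB2.3 (AT3G27690_at) had 3.03, 4.02 and 2.64 on the nuclear arrays against 1.96, 1.57 and 1.42 on the cellular arrays (log2 change 1.58, adjusted p = 0.0700). Both had cellular values below every array median, and nuclear values above the cellular ones on every array. LHCB1.4 (AT2G34430_at) was the 1 member whose mean was lower in nuclear RNA, with 2.39, 3.43 and 3.99 on the nuclear arrays against 3.47, 4.02 and 3.98 on the cellular arrays. These values overlapped, and the log2 change of -0.56 had a 95% confidence interval from -1.60 to 0.48 (adjusted p = 0.452). LHCB1.1 (AT1G29920_at) was below the array's own median on each of the 6 arrays, with a nuclear mean of 1.98 ± 0.36 and a cellular mean of 1.75 ± 0.45 (SD, n = 3 each).

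LHCB1.2, LHCB1.1 and LHCB1.3 follow each other on chromosome 1 with no other gene between neighbours, and LHCB1.4 and LHCB1.5 are neighbours on chromosome 2, by their order in the RefSeq table of assembly TAIR10.1. These copies are close relatives in sequence, and how the probe sets separate them is not named in the sources used here. None of the 43 genes shared all 6 values with another of the 43. Of the 43, 17 overlap another annotated gene, 6 of them among the genes that rose (LHCB1.3, LHCB1.5, LHCA4, PSAE-1, PSAG and PSAH-1), and the strand that the table's values read is not named either.

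The minor antenna proteins LHCB4, LHCB5 and LHCB6 link the trimers to the PSII core, and 0 of these 5 genes passed (1 at an unadjusted p under 0.05, LHCB4.2). LHCB4.2 (AT3G08940_at) came nearest, with 3.54, 3.33 and 2.83 on the nuclear arrays against 2.21, 2.12 and 2.26 on the cellular arrays (log2 change 1.04, SE 0.23, adjusted p = 0.0575). LHCB4.1 (AT5G01530_at) had 5.75, 5.42 and 6.04 on the nuclear arrays against 4.09, 5.38 and 5.08 on the cellular arrays, a bare separation of 0.03 between the groups (log2 change 0.89, adjusted p = 0.224). LHCB5 (AT4G10340_at) had 6.55, 6.18 and 6.63 on the nuclear arrays against 3.28, 6.02 and 5.28 on the cellular arrays. Its cellular spread was the widest after that of LHCB1.2, and its log2 change of 1.59 did not pass (adjusted p = 0.225). LHCB4.3 (AT2G40100_at) had 2.70, 2.33 and 2.13 on the nuclear arrays against 1.75, 1.92 and 2.13 on the cellular arrays (log2 change 0.45, adjusted p = 0.285). LHCB6 (AT1G15820_at) had 2.68, 2.91 and 4.12 on the nuclear arrays against 2.31, 2.60 and 3.10 on the cellular arrays (log2 change 0.56, adjusted p = 0.448). The groups overlapped in both.

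Of the LHCA genes, which encode the antenna of PSI, LHCA4 (AT3G47470_at) rose with the smallest standard error of any member. It had 7.36, 7.27 and 7.26 on the nuclear arrays, against 5.54, 5.66 and 5.63 on the cellular arrays. The groups lay 1.61 apart at their nearest arrays, and the rise was 3.23-fold (log2 change 1.69, SE 0.17, 95% confidence interval of the fold 2.45 to 4.27, adjusted p = 0.00746). It was the 1 member that passed in every one of the 14 alternatives run, with adjusted p up to 0.0455. LHCA2 (AT3G61470_at) had 5.38, 5.11 and 4.91 on the nuclear arrays against 4.38, 4.47 and 4.06 on the cellular arrays, without overlap (log2 change 0.83, adjusted p = 0.0833). It passed after cyclic loess and after quantile normalization. LHCA3 (AT1G61520_at) had 3.94, 3.47 and 3.44 on the nuclear arrays against 2.80, 2.73 and 3.03 on the cellular arrays, also without overlap (log2 change 0.76, adjusted p = 0.104). LHCA1 (AT3G54890_at) was dim in both groups, at 2.12, 2.39 and 1.55 on the nuclear arrays, against 1.90, 1.78 and 1.70 on the cellular arrays. LHCA5 (AT1G45474_at) and LHCA6 (AT1G19150_at), which link PSI to the NDH complex of cyclic electron flow, had 2.86, 3.93 and 1.79, and 3.75, 3.06 and 2.12, on the nuclear arrays. Their cellular values were 1.86, 2.52 and 2.18, and 2.29, 2.39 and 2.67, so both overlapped and were not called (adjusted p = 0.469 and 0.467).

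**Figure D3:**
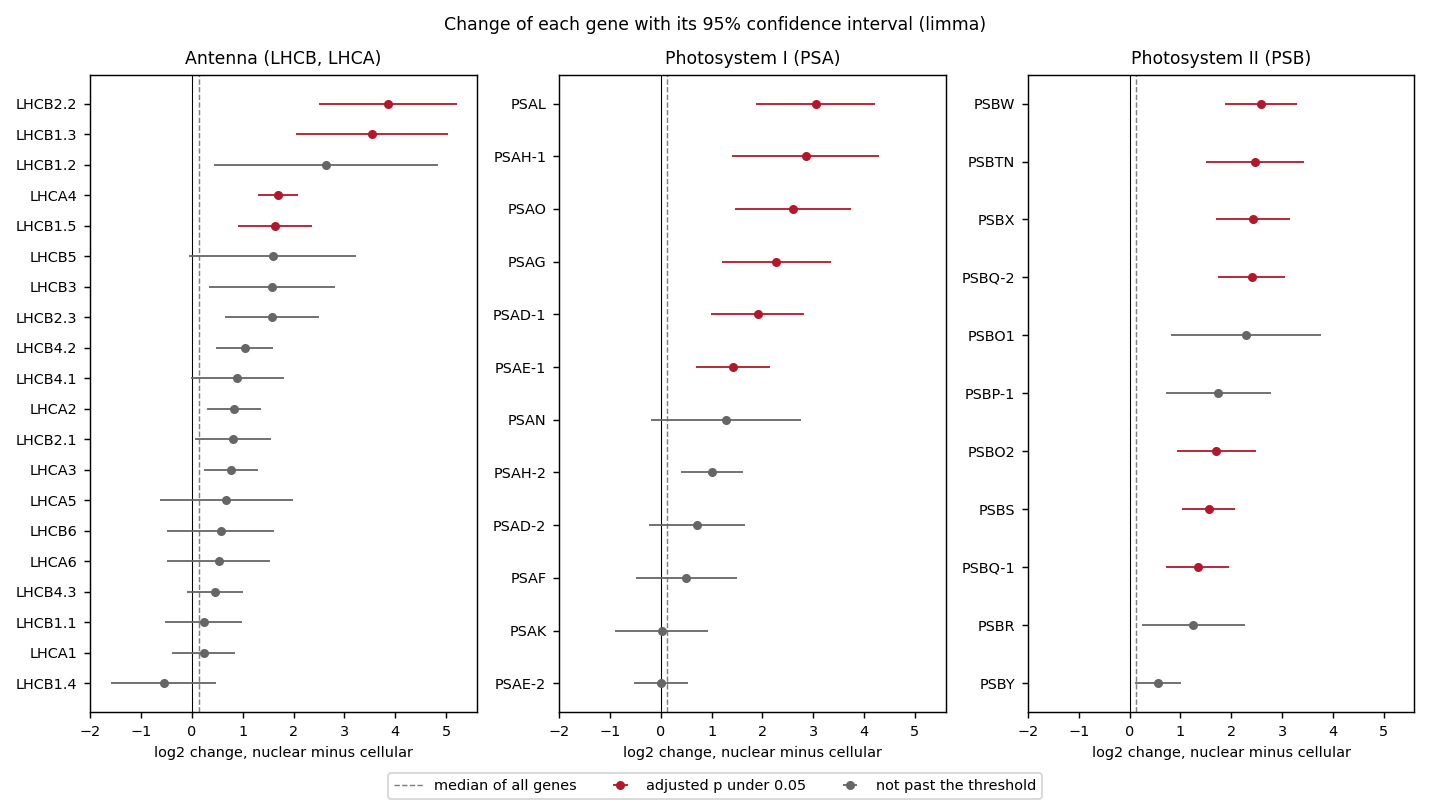
Log2 change of each gene, nuclear minus cellular, with the 95% confidence interval from limma, sorted within each class; red marks genes with an adjusted p under 0.05, grey the others, and the dashed line is the median of all genes, 0.13. Of the antenna genes 4 are red, of the PSI genes 6 and of the PSII genes 7, and LHCB1.4 at -0.56 is the 1 point left of 0.

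On the stromal face of PSI, PSAD and PSAE form the docking site of ferredoxin, and each is encoded by a pair of genes of which 1 rose. PSAD-1 (AT4G02770_at) had 5.82, 4.75 and 4.61 on the nuclear arrays against 2.86, 3.08 and 3.53 on the cellular arrays, and rose 3.75-fold (log2 change 1.91, SE 0.38, adjusted p = 0.0404). PSAD-2 (AT1G03130_at) had 2.64, 2.75 and 3.97 on the nuclear arrays against 2.12, 2.50 and 2.61 on the cellular arrays, barely apart, and did not pass (log2 change 0.71, adjusted p = 0.320). PSAE-1 (AT4G28750_at) had 5.41, 4.51 and 5.34 on the nuclear arrays against 3.46, 3.60 and 3.95 on the cellular arrays. Its 2.67-fold rise stood at the edge of the threshold (log2 change 1.42, SE 0.30, adjusted p = 0.04999), and it was lost in 8 of the 14 alternatives. PSAE-2 (AT2G20260_at) had 3.63, 3.64 and 4.08 on the nuclear arrays, against 3.61, 3.71 and 3.99 on the cellular arrays, almost the same values. Its 95% confidence interval of the fold ran from 0.699 to 1.46.

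PSAH, PSAL and PSAO lie on the side of PSI where mobile antenna trimers dock during state transitions. PSAL (AT4G12800_at) had the largest PSI change, with 7.46, 7.55 and 7.37 on the nuclear arrays against 3.30, 4.74 and 5.19 on the cellular arrays. The nuclear arrays were tight and the cellular ones wide, and the rise was 8.28-fold (log2 change 3.05, SE 0.48, adjusted p = 0.0218). PSAH-1 (AT3G16140_at) had 7.34, 8.29 and 7.17 on the nuclear arrays against 3.48, 5.36 and 5.41 on the cellular arrays, a 7.22-fold rise (log2 SE 0.60, adjusted p = 0.0477). Its copy PSAH-2 (AT1G52230_at) had 3.60, 3.67 and 3.67 on the nuclear arrays against 2.25, 2.60 and 3.08 on the cellular arrays, without overlap but short of the threshold (log2 change 1.00, adjusted p = 0.0743). PSAO (AT1G08380_at) had 7.63, 6.16 and 6.81 on the nuclear arrays against 3.54, 4.57 and 4.69 on the cellular arrays, and rose 6.08-fold (log2 SE 0.47, adjusted p = 0.0317).

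PSAG and PSAK are related membrane subunits at the edge of the PSI core that help to bind the antenna, and 1 of them rose. PSAG (AT1G55670_at) had 7.43, 7.64 and 7.59 on the nuclear arrays against 4.52, 5.06 and 6.27 on the cellular arrays, a 4.82-fold rise (log2 change 2.27, SE 0.44, adjusted p = 0.0390). PSAK (AT1G30380_at) had 4.27, 5.43 and 4.82 on the nuclear arrays, against 4.31, 5.23 and 4.92 on the cellular arrays. The groups lay on top of each other, with a log2 change of 0.02 and a 95% confidence interval from -0.90 to 0.93. PSAF (AT1G31330_at), which docks plastocyanin on the lumenal side, had 5.79, 6.81 and 6.51 on the nuclear arrays against 5.15, 6.07 and 6.37 on the cellular arrays, overlapping and not called (log2 change 0.50, adjusted p = 0.476). PSAN (AT5G64040_at), a lumenal subunit, was high on nuclear replicate 1 alone, with 7.56, 5.37 and 5.72 on the nuclear arrays against 4.51, 4.80 and 5.48 on the cellular arrays (log2 change 1.29, adjusted p = 0.261).

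In PSII, PSBO, PSBP and PSBQ form the lumenal shield of the manganese cluster that oxidises water, and 3 of these 5 genes rose. PSBQ-2 (AT4G05180_at) had 5.66, 6.36 and 6.45 on the nuclear arrays against 3.53, 3.85 and 3.89 on the cellular arrays. All nuclear values were well above all cellular ones, and the rise was 5.28-fold (log2 change 2.40, SE 0.27, adjusted p = 0.00971). PSBQ-1 (AT4G21280_at) had 3.76, 3.03 and 3.29 on the nuclear arrays against 1.91, 1.88 and 2.29 on the cellular arrays, with the cellular values below the array medians, and rose 2.52-fold (log2 SE 0.26, adjusted p = 0.0368). This call was lost in 8 of the 14 alternatives, cyclic loess and quantile normalization among them. PSBO2 (AT3G50820_at) had 4.34, 4.51 and 3.99 on the nuclear arrays against 2.58, 2.03 and 3.11 on the cellular arrays, a 3.27-fold rise (log2 SE 0.32, adjusted p = 0.0344). PSBO1 (AT5G66570_at) had 8.32, 8.84 and 8.00 on the nuclear arrays against 4.78, 6.31 and 7.18 on the cellular arrays. The cellular arrays were far apart, and its fold of 4.90 did not pass (log2 SE 0.61, adjusted p = 0.0860). PSBP-1 (AT1G06680_at) had 5.84, 5.51 and 5.03 on the nuclear arrays against 2.87, 3.92 and 4.36 on the cellular arrays, also without overlap (log2 change 1.75, adjusted p = 0.0710).

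Of the small PSII subunits, PSBW, PSBX and PSBTN each rose. PSBW (AT2G30570_at), which stabilises the PSII-antenna supercomplex, had 7.74, 7.45 and 6.85 on the nuclear arrays against 4.46, 4.78 and 5.03 on the cellular arrays (6.03-fold, log2 SE 0.29, adjusted p = 0.00971). PSBX (AT2G06520_at), a single-helix membrane subunit, had 7.51, 7.47 and 6.95 on the nuclear arrays against 4.35, 5.06 and 5.22 on the cellular arrays (5.39-fold, log2 SE 0.30, adjusted p = 0.0116). PSBTN (AT3G21055_at), a small lumenal protein, had 6.60, 6.38 and 5.80 on the nuclear arrays against 3.03, 4.05 and 4.32 on the cellular arrays (5.52-fold, log2 SE 0.40, adjusted p = 0.0232). In all 3 genes the lowest nuclear array lay more than 1 log2 unit above the highest cellular array. PSBS (AT1G44575_at), the sensor protein of energy-dependent quenching of excess light, had 5.23, 4.63 and 4.97 on the nuclear arrays against 3.30, 3.40 and 3.47 on the cellular arrays, and rose 2.94-fold (log2 SE 0.22, adjusted p = 0.0152). PSBR (AT1G79040_at) had 6.96, 6.47 and 7.36 on the nuclear arrays against 4.88, 6.26 and 5.89 on the cellular arrays, without overlap (log2 change 1.25, adjusted p = 0.146). PSBY (AT1G67740_at) was dim, below the array's own median on each of the 6 arrays, with 2.30, 2.49 and 2.46 on the nuclear arrays against 1.76, 1.75 and 2.07 on the cellular arrays (log2 change 0.55, adjusted p = 0.151).

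Whether related genes changed by different amounts was tested on the per-array difference of their log2 values in 12 pairs. With 3 arrays against 3 the exact two-sided permutation test cannot go below 0.10, so no pair could pass the threshold. In 5 pairs the nuclear and cellular differences did not overlap, each at that smallest exact p of 0.10 (adjusted p = 0.24 over the 12 pairs). LHCB2.2 changed by 3.03 log2 units more than LHCB2.1, and LHCB1.5 by 2.19 more than its chromosomal neighbour LHCB1.4. PSAH-1 exceeded PSAH-2 by 1.85, PSAE-1 exceeded PSAE-2 by 1.40, and the difference of LHCB2.1 from LHCB2.3 was -0.76. LHCB2.1 and LHCB2.3 had cellular values below every array median, which limits what the contrasts with LHCB2.1 can show. The SD of the per-array differences in the 5 pairs lay between 0.30 and 0.97 on the nuclear arrays and between 0.06 and 0.79 on the cellular arrays. In the other 7 pairs the differences overlapped, PSBO1 with PSBO2 (0.59, exact p = 0.80), PSBQ-1 with PSBQ-2 (-1.07, exact p = 0.20) and PSAD-1 with PSAD-2 (1.19, exact p = 0.30) among them. The smallest difference was that of LHCB4.1 from LHCB4.2, at -0.15 (exact p = 0.90).

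**Figure D4:**
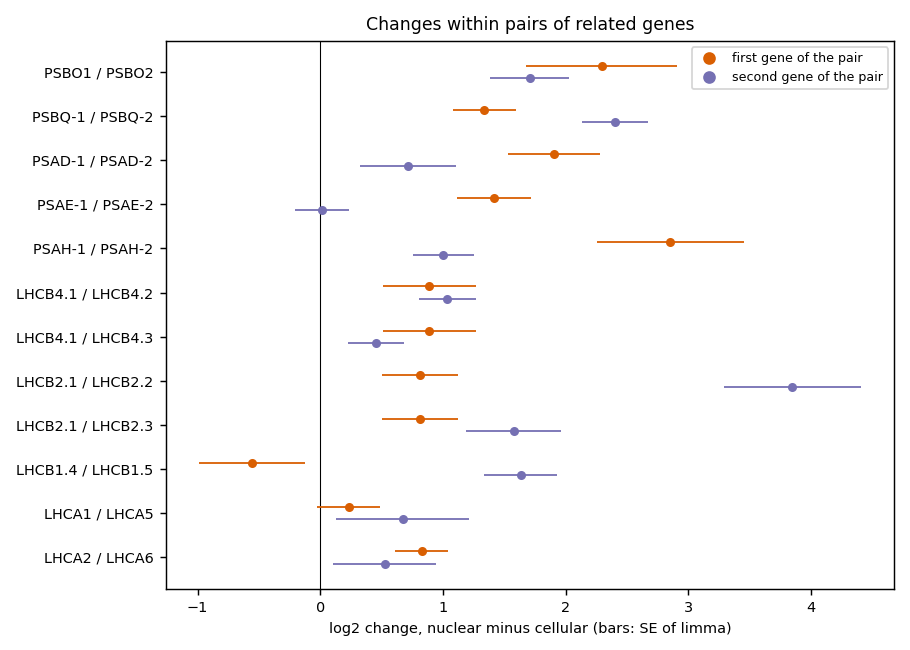
Log2 change, nuclear minus cellular, of both genes in each of the 12 pairs tested, with the first named gene in orange above the second in purple; bars are the standard error from limma. LHCB2.2 at 3.85 lies far from LHCB2.1 at 0.82, and LHCB1.4 at -0.56 lies left of 0 while LHCB1.5 stands at 1.63.

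The rest of the photosynthetic pathway was read from lists chosen with earlier results of these data known. Of 11 genes of electron transport and the chloroplast ATP synthase, 0 passed in either direction, although 11 of 11 lay above 0 and an unadjusted p under 0.05 was reached by 7, all higher. Their median log2 change was 1.08. On 7 of the 11 (63.6%) every nuclear array was above every cellular array, against 18.6% of all genes. How many of all genes lay above 0 or reached such an unadjusted p was not counted. The lowest p were those of ATPC1, the gamma subunit of the ATP synthase, with 5.63, 4.58 and 5.73 on the nuclear arrays against 2.49, 3.69 and 3.66 on the cellular arrays (log2 change 2.03, adjusted p = 0.0575), and AT2G26500 (log2 change 1.41, adjusted p = 0.0991). Of 19 genes of the Calvin cycle and its regulators, 6 (31.6%) rose and 0 fell, against 1.15% and 4.71% of all genes. Their median log2 change was 1.41. On 13 of the 19 (68.4%) every nuclear array was above every cellular array, against 18.6% of all genes. The largest rises were those of RBCS1B (log2 change 5.13) and RBCS2B (3.27), small subunits of the carbon-fixing enzyme Rubisco. RBCS3B (1.40), another small subunit, the Rubisco activase RCA (2.71), GAPB (2.32), a subunit of the chloroplast glyceraldehyde phosphate dehydrogenase, and SBPASE (2.46), which dephosphorylates sedoheptulose bisphosphate, rose as well.

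Of 22 chlorophyll synthesis genes, 2 (9.09%) rose and 0 fell, against 1.15% and 4.71% of all genes. The list's median log2 change was 0.35. HEMA1, which catalyses the first committed step toward tetrapyrroles, had 6.94, 6.37 and 7.24 on the nuclear arrays against 3.37, 4.10 and 4.80 on the cellular arrays (6.76-fold, log2 change 2.76, SE 0.42, adjusted p = 0.0193). CHLH, the magnesium chelatase subunit that binds the porphyrin, had 6.88, 6.43 and 5.99 on the nuclear arrays against 3.93, 4.52 and 4.63 on the cellular arrays (4.20-fold, log2 change 2.07, SE 0.31, adjusted p = 0.0190). Both had clear gaps between the groups, while 17 of the 22 changes lay above 0. Every nuclear array was above every cellular array for 4 of the 22 (18.2%), near the 18.6% of all genes. Among 17 genes of antenna targeting and photosystem assembly 0 passed in either direction (3 higher and 0 lower at an unadjusted p under 0.05), and the list had a median of 0.39. The lowest p there belonged to CPSRP43, the signal recognition particle subunit that carries antenna proteins to the thylakoid (log2 change 1.50, adjusted p = 0.0963), and CURT1A, which curves thylakoid edges (1.59, adjusted p = 0.116). For 3 of these 17 assembly genes (17.6%) every nuclear array was above every cellular array, near the 18.6% of all genes.

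Among 8 LHC-like genes, relatives of the antenna with roles in pigment handling and light stress, 1 rose and 1 fell, and the median was -0.10. These were the early light-induced proteins ELIP1 and ELIP2. ELIP1 had 8.90, 8.89 and 7.90 on the nuclear arrays against 3.47, 4.48 and 6.42 on the cellular arrays, a 13.7-fold rise (log2 SE 0.75, adjusted p = 0.0409). ELIP2 had 4.91, 5.91 and 5.69 on the nuclear arrays against 7.65, 7.27 and 6.81 on the cellular arrays, and fell by 1.74 on the log2 scale (SE 0.35, adjusted p = 0.0413). In neither gene did the groups overlap. Every nuclear array was above every cellular array for 1 of the 8 (12.5%) and below for 1, against 18.6% and 14.4% of all genes. Past the threshold, 1.15% of all genes rose and 4.71% fell. Of 17 light signalling and plastid regulators, 0 passed in either direction (1 higher and 1 lower at an unadjusted p under 0.05), and the list had a median of 0.20. The lowest p were those of PIF3, a phytochrome-interacting repressor of greening (log2 change -0.76, adjusted p = 0.179), and GNL, a GATA factor of chloroplast development (0.45, adjusted p = 0.205). The values of GNL stayed below the array medians on all 6 arrays. Every nuclear array was above every cellular array for 3 of the 17 regulators (17.6%) and below for 2. Over all genes these shares were 18.6% and 14.4%.

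**Figure D5:**
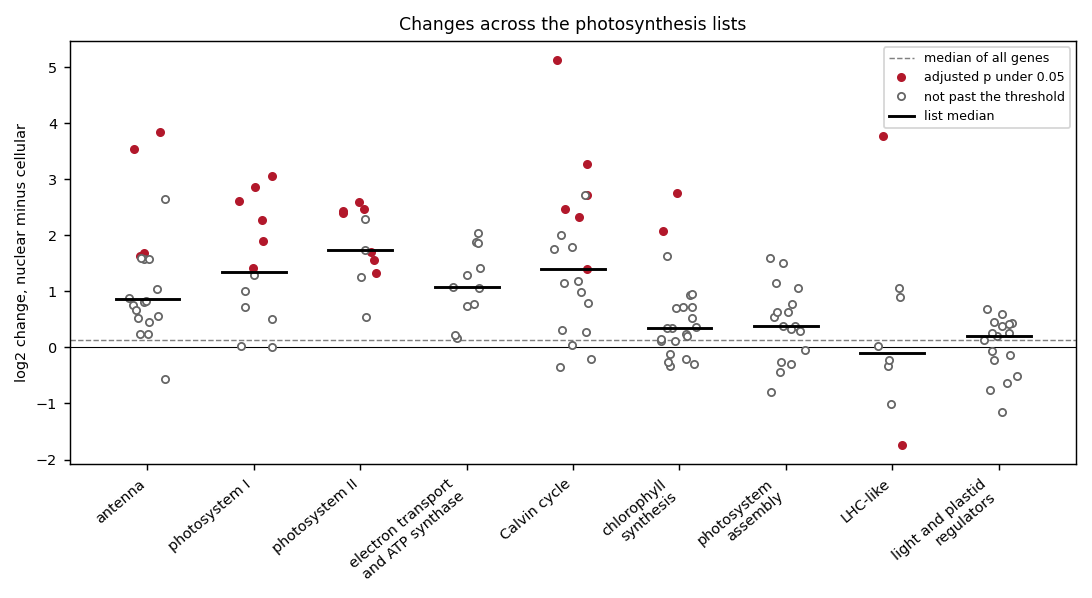
Log2 change, nuclear minus cellular, of every gene in the 3 classes and in 6 further photosynthesis lists, 1 point per gene, filled red where the adjusted p was under 0.05; black bars are list medians and the dashed line is the median of all genes, 0.13. The medians are 0.86, 1.35 and 1.75 for antenna, PSI and PSII genes, 1.08 for electron transport, 1.41 for the Calvin cycle, and between -0.10 and 0.39 for the other 4 lists.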

How the data were processed

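Amplified cDNA labelled with biotin was hybridised, per the labels. The authors deposited linear microarray intensities made with RMA, per the submitters' processing notes. No source used here gives the RMA version, the array type or the probe sets. RMA often forces 1 probe distribution on all arrays, which can shift changes where RNA pools differ. Here log2 was taken once, with no pseudocount, filter or further scaling. Of 27826 rows, the 27241 that the RefSeq table (assembly TAIR10.1) names entered limma 3.58.1 (R 4.3.3; lmFit and eBayes, both tails, 4 residual degrees of freedom plus 2.33 prior ones), with Benjamini-Hochberg adjustment over all of them, and 585 were left out. Pairs were tested with scipy 1.17.1. There are no detection calls, and 3 arrays per group limit the precision. The test was checked on simulated data with independent normal noise for each gene, so shifts of a whole array were not covered.

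The members, lists, pairs and alternatives were chosen with earlier results of these data known. Every member is named or counted, with values on each array for those past the threshold or in a tested pair. Of every other list the text names up to 2 rises and 2 falls with the largest change past the threshold, or the genes with the 2 lowest p; any further gene was added after its values were seen. The alternatives were cyclic loess, quantile normalization, brighter genes only, a trend in the variance with robust fitting, weights per array, a block for the replicate number, all rows, identical rows counted once and each array left out.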

Additional observations from a re-analysis of the deposited data

How the results depend on the processing

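Over the 14 alternatives, the class medians all stayed above 0, and 40 to 42 of the 43 changes did (35 of the 36 tested among brighter genes). The median change of antenna genes moved from 0.86 to 1.10 after cyclic loess, 1.12 with quantile normalization and 1.31 when brighter genes alone were tested (14 of the 20, with PSI still at 1.35), and to between 0.81 and 1.08 with single arrays left out. Cyclic loess took the median of all genes from 0.13 to 0.02. The cause of these shifts was not tested. All-gene calls were then 489 higher and 846 lower (63.4% lower), after quantile normalization 68.5% lower, against 313 and 1284 (80.4% lower) as deposited. Of the 17 rises, 16 were kept under each of these scalings. Nuclear and cellular arrays share only a replicate number, which did not pair them (correlations of deviations -0.06 to -0.01). With the replicate block, 4 members were higher (2 antenna, 0 PSI, 2 PSII), and 118 of all genes were higher and 571 lower. With single arrays left out, fewer samples being tested, the counts of higher genes ran from 1 to 19 for members, 1 to 4 for antenna, 0 to 6 for PSI, 0 to 9 for PSII and 28 to 419 for all genes, and lower genes from 254 to 1688. Of the 17 rises, 16 were lost without cellular replicate 2, 12 without cellular replicate 1, 10 without each nuclear array in turn and 1 without cellular replicate 3. Non-overlapping pairs numbered 7 in place of 5 after either scaling. Dim genes such as LHCB1.1, LHCA1 and PSBY limit what the arrays can show.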
